A study of Mus musculus with 8 samples.

Results

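Mir17-92 and Mir106b-25 are a pair of microRNA (miRNA) clusters, each made from a single host transcript. Their members were taken as the 9 hairpin genes of both loci, Mir17, Mir18, Mir19a, Mir20a, Mir19b-1 and Mir92-1 on chromosome 14 and Mir106b, Mir93 and Mir25 on chromosome 5, out of 2201 miRNA genes in the GENCODE annotation. A read was assigned to a member when its sequence, 20 to 24 nt long, was found exactly and in sense in the hairpin transcript.

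Mir17-92 is a polycistron, also known as an oncomiR, whose transcription is driven by factors of the cell cycle such as MYC and E2F. Its miRNAs and those of Mir106b-25 fall into a few seed families, and the miR-17 family is known to repress inhibitors of the cell cycle. Mir17-92 is known to be expressed in mouse primordial germ cells (mPGCs) and to be needed for normal spermatogenesis.

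The study looked for PIWI-interacting RNAs, the small RNAs that silence transposons in the germline, in germ cells made in culture, with mPGCs of known stages for comparison. Small RNA was sequenced from mPGCs of 3 stages (E12.5, E13.5, E15.5) and from primordial germ cell-like cells (mPGCLCs) at day 6 of differentiation, with 2 libraries per group and 8 in all. The mPGCs were sorted from male genital ridges, with each replicate a pool of 2 embryos from its own litter. The mPGCLCs were derived from the SGET embryonic stem cell line and sorted from embryoid bodies as positive for the Stella-GFP reporter and negative for the Esg1-tdTomato reporter.

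The mPGC groups carried the GOF18 reporter, a germ cell transgene driven by the Oct4 promoter, and are labelled C57BL/6J and as sorted with SSEA1 and CD61, whereas the study's methods describe sorting by EGFP on a mixed FVB and C57BL/6J background. SGET is a single male line on a B6CBA/129 background. Strain, culture, reporter and sort therefore changed together with cell origin, and their contributions cannot be told apart in any comparison of mPGCLCs with mPGCs. The study states that samples were run on both HiSeq and NovaSeq instruments and that it merged the files of each library. The runs of each library are not given, so a sequencing batch could not be checked against the groups.

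The libraries held 7447873 and 13614516 mapping reads at E12.5, 12043363 and 19734948 in E13.5 mPGCs, 13601492 and 26552524 in E15.5 mPGCs, and 10209580 and 9526338 in mPGCLCs, for replicates 1 and 2. Reads that matched a miRNA hairpin were 12.8% and 20.6% of these at E12.5, 14.6% and 21.3% in E13.5 mPGCs, 2.22% and 1.89% in E15.5 mPGCs, and 16.0% and 24.8% in mPGCLCs. The E15.5 libraries stood apart, with 301643 and 501867 miRNA-matching reads against 954681 to 4195075 in the other 6. Levels below are percents of miRNA-matching reads unless the total is named, and values that follow each other are replicates 1 and 2. The share that 3 counts could show ranged from 7.15e-05% to 0.000995% of miRNA-matching reads. Such limits, and the 95% intervals by Wilson's method, take in the error of counting alone, since PCR copies were counted as reads. In bulk RNA of this kind, fewer cells of a type and less RNA per cell cannot be told apart.

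The 6 hairpins of Mir17-92 lay within 836 bases of the plus strand of GRCm38, from Mir17 at chr14:115043671-115043754 to Mir92-1 at chr14:115044427-115044506. All 6 were inside exon 2 of the long noncoding RNA Mir17hg (chr14:115042879-115046727). Mir106b at chr5:138165737-138165818, Mir93 at chr5:138165523-138165610 and Mir25 at chr5:138165321-138165404 spanned 498 bases of the minus strand in intron 13 of the transcript of Mcm7 with 15 exons. Mcm7 (chr5:138164583-138172422) encodes a subunit of the replicative DNA helicase. In a short transcript of Mcm7 with 2 exons the hairpins of Mir93 and Mir25 were annotated within exon 1. Another locus, Mir106a-363 at chrX:52741693-52742567, holds the X-linked paralogs Mir106a, Mir18b, Mir20b, Mir19b-2, Mir92-2 and Mir363, and it was the only paralog locus with which member reads were shared.

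**Figure D1:**
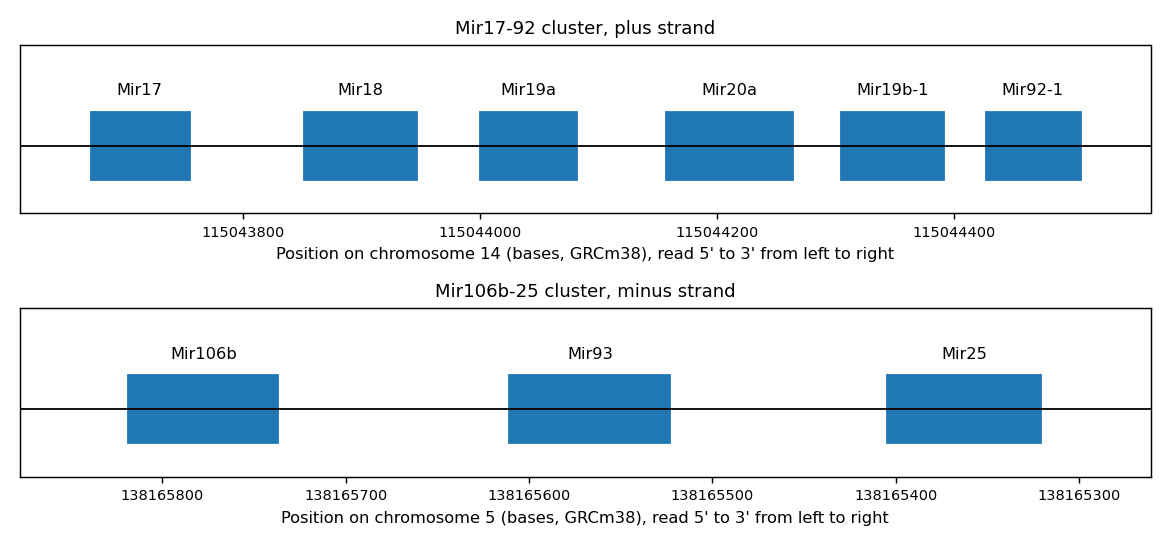
Maps of Mir17-92 and Mir106b-25 on GRCm38, with position in bases on the horizontal axis in the direction of transcription and each hairpin drawn to scale as a box. The 6 hairpins of Mir17-92 and the 3 of Mir106b-25 lie close together, with Mir92-1 and Mir25 last.

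All 9 members were found among the mature sequences of RefSeq (GRCm38.p6), with 17 arms. The major mature forms are given by seed (bases 2 to 8, in capitals), because members of different loci share a seed and 2 of the forms are also made from chromosome X. The seed AAAGUGC was shared by 4 members, 2 from each cluster.
miR-17-5p: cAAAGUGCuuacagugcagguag
miR-20a-5p: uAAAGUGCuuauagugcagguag
miR-106b-5p: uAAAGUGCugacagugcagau
miR-93-5p: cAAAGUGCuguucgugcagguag
The seed AUUGCAC was shared by Mir92-1 and Mir25, again 1 member from each cluster.
miR-92a-3p: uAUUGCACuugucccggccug
miR-25-3p: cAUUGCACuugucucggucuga
The remaining families, with the seeds GUGCAAA and AAGGUGC, were made by Mir17-92 without a counterpart in Mir106b-25.
miR-19a-3p: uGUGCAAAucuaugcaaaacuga
miR-19b-3p: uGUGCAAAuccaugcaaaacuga
miR-18a-5p: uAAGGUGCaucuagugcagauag

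Together the clusters supplied a large part of the miRNA reads of every library. Their summed share was 16.9% and 17.2% in E12.5 mPGCs, 19.0% and 17.1% in E13.5 mPGCs, 13.9% and 15.9% in E15.5 mPGCs, and 14.9% and 14.3% in mPGCLCs. Every E15.5 and mPGCLC library lay below every E12.5 and E13.5 library. With 2 libraries against 2, the smallest p that a two-sided exact permutation test can give is 0.333, so no comparison of shares could pass a threshold of 0.05.

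Mir17-92 alone took 12.3% and 12.49% of miRNA-matching reads at E12.5, 14.3% and 12.4% in E13.5 mPGCs, 10.4% and 14.4% in E15.5 mPGCs, and 12.7% and 10.8% in mPGCLCs. The groups overlapped in all 4 comparisons. Group means were 12.4% ± 0.153 in E12.5 mPGCs, 13.3% ± 1.34 in E13.5 mPGCs, 12.4% ± 2.83 in E15.5 mPGCs and 11.8% ± 1.35 in mPGCLCs (SD, n = 2). The ratio of means was 1.08 ± 0.109 for E13.5 over E12.5, 0.930 ± 0.232 for E15.5 over E13.5, 0.953 ± 0.109 for mPGCLCs over E12.5 and 0.886 ± 0.135 for mPGCLCs over E13.5 (propagated SD). Each difference was smaller than the gap between replicates in the group with the wider spread.

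Mir106b-25 took 4.66% and 4.72% in E12.5 mPGCs, 4.73% and 4.69% in E13.5 mPGCs, 3.56% and 1.56% in E15.5 mPGCs, and 2.20% and 3.42% in mPGCLCs. The E12.5 and E13.5 values lay close together, and the E15.5 and mPGCLC values were lower and wider apart, without overlap with either earlier group. Group means were 4.69% ± 0.0364, 4.71% ± 0.0288, 2.56% ± 1.42 and 2.81% ± 0.863 in that order (SD, n = 2). The ratio of means was 0.543 ± 0.301 for E15.5 over E13.5, and 0.330 without E15.5 replicate 1 against 0.756 without replicate 2. For mPGCLCs the ratio was 0.599 ± 0.184 over E12.5 and 0.597 ± 0.183 over E13.5, and each of these 3 comparisons had an exact permutation p of 0.333. By mean, E13.5 and E12.5 came first and did not differ beyond their spread, and mPGCLCs and E15.5 came last and did not differ beyond theirs.

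As shares of all mapping reads, Mir17-92 made up 2.07% ± 0.707 in E12.5 mPGCs, 2.35% ± 0.388 in E13.5 mPGCs, 0.251% ± 0.0295 in E15.5 mPGCs and 2.37% ± 0.460 in mPGCLCs (SD, n = 2). Mir106b-25 made up 0.785% ± 0.264, 0.844% ± 0.217, 0.0542% ± 0.0351 and 0.601% ± 0.352 in the same order. On this scale E15.5 stood apart at 0.107 ± 0.0216 of the E13.5 level for Mir17-92 and 0.0642 ± 0.0448 for Mir106b-25, in libraries where all miRNA-matching reads were a small share. The mPGCLC level of Mir106b-25 overlapped with both mPGC groups on this scale, at 0.766 ± 0.517 of E12.5 and 0.712 ± 0.455 of E13.5. These ratios rested on single libraries, at 1.08 and 1.01 without mPGCLC replicate 1 and 0.449 and 0.418 without replicate 2. For E15.5 over E13.5, the ratio of Mir106b-25 was 0.0348 without E15.5 replicate 1 and 0.0936 without replicate 2, and that of Mir17-92 was 0.0955 to 0.121 without any 1 library.

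**Figure D2:**
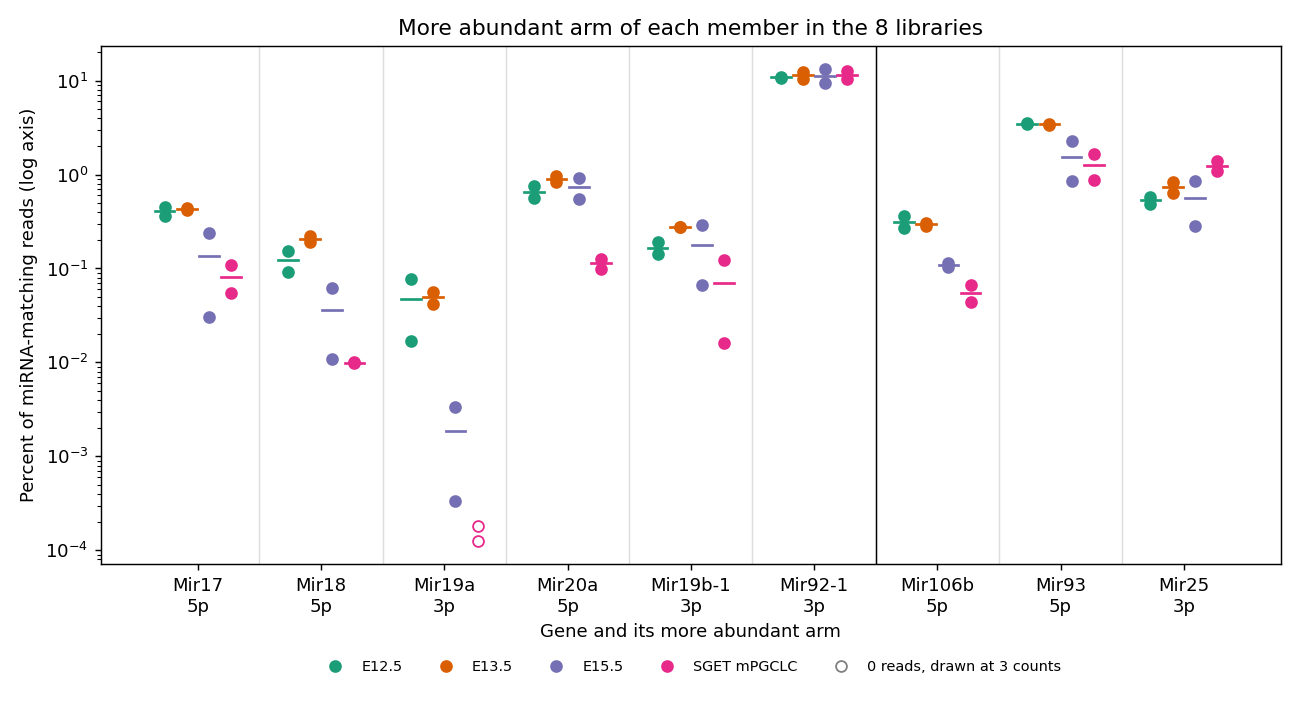
Level of the major arm of each member in every library, as percent of miRNA-matching reads on a log axis, with members along the horizontal axis, 1 point per library, groups by color and a bar at each group mean. Libraries with no read are drawn open at the level of 3 counts, as for Mir19a-3p in both mPGCLC libraries, and Mir92-1-3p stays above 9% throughout.

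The share of Mir17-92 rested on its last hairpin. Mir92-1 supplied between 85.1% and 98.1% of the cluster's reads, and its 3p arm took 11.02% and 10.8% in E12.5 mPGCs, 12.3% and 10.5% in E13.5 mPGCs, 9.41% and 13.1% in E15.5 mPGCs, and 12.501% and 10.4% in mPGCLCs. Pooled with the 3p arm of its paralog Mir92-2, with which it shares reads, it ranked 1 of 731 arms by mean share in each mPGC group and 2 in mPGCLCs. The other 5 members of Mir17-92, a sum chosen after its values were seen, together took 1.21% and 1.67% in E12.5 mPGCs, 1.94% and 1.84% in E13.5 mPGCs, 0.920% and 1.26% in E15.5 mPGCs, and 0.242% and 0.431% in mPGCLCs. Here the mPGCLC libraries were below all 6 mPGC libraries, at 0.233 ± 0.107 of E12.5 and 0.178 ± 0.0710 of E13.5. As shares of all mapping reads they were above E15.5, at 0.0388% and 0.107% against 0.0204% and 0.0239%. Within Mir106b-25 the leading member was Mir93 or Mir25, at 39.4% to 75.7% and 14.0% to 55.9% of the cluster's reads, with Mir106b at 4.69% to 26.3%.

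Reads of miR-92a-3p could be split by locus, because the most abundant form was 1 base longer than the RefSeq entry and that base differs between the hairpins of Mir92-1 and Mir92-2. The reads are shown as sequenced, with the seed and the last base in capitals.
22-nt read of Mir92-1: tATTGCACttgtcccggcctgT
22-nt read of Mir92-2: tATTGCACttgtcccggcctgA
The change from Mir92-1 to Mir92-2 is T22A, with positions counted from 1 at the 5′ end of the read. The Mir92-1 form was read 96978 and 286927 times at E12.5, 195376 and 412952 times at E13.5, 25264 and 58793 times at E15.5, and 191298 and 232085 times in mPGCLCs. The Mir92-2 form was read 34570 and 69088 times, 54084 and 85639 times, 8522 and 14580 times, and 55892 and 99303 times in the same order. Mir92-1 was the larger source in all 8 libraries. Of reads specific to either locus, it supplied 77.3% ± 4.74 in E12.5 mPGCs, 80.7% ± 3.02 in E13.5 mPGCs, 77.6% ± 3.98 in E15.5 mPGCs and 73.9% ± 5.46 in mPGCLCs (SD, n = 2). Single libraries ranged from 70.1% (95% Wilson interval 69.9% to 70.2%) in mPGCLC replicate 2 to 82.8% (82.7% to 82.9%) in E13.5 replicate 2. The groups overlapped except that both mPGCLC libraries lay below both E13.5 libraries. Reads that fitted both loci were 1.90% to 4.996% of the reads of the arm. Addition of a T or A after cleavage would give the same reads, and its share was not tested.

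All 3p reads counted for Mir19b-1 also fitted Mir19b-2, so its values belong to both loci, and between 0 and 301 further reads a library fitted Mir19b-2 alone and entered the test of the joined arm. Across Mir17-92 as a whole, reads shared with a gene outside the cluster were 2.62% to 6.74% of its reads, and Mir106b-25 had none. The paralog cluster Mir106a-363, with shared reads included, took 5.14% and 3.65% in E12.5 mPGCs, 4.72% and 3.28% in E13.5 mPGCs, 4.01% and 4.44% in E15.5 mPGCs, and 4.22% and 5.12% in mPGCLCs. Its groups overlapped in all 4 comparisons.

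For the test of single arms, 474 of 731 arms with reads passed the filter on low counts, among them 16 of the 18 member arms. The 5p arm of Mir19a had no read in any library, and the 5p arm of Mir19b-1 had 36 reads in E12.5 replicate 2 and none elsewhere. Libraries were fitted together with edgeR, and an arm was called at an adjusted p under 0.05 over all 474.

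From E12.5 to E13.5, the days after the sex of the gonad is set, no member arm passed the test. Mir93-5p, the most abundant arm of Mir106b-25, was at 3.49% and 3.49% in E12.5 mPGCs and 3.35% and 3.48% in E13.5 mPGCs. Mir20a-5p, a miR-17 family arm, was at 0.562% and 0.746% in E12.5 mPGCs and 0.965% and 0.841% in E13.5 mPGCs. The first pair differed little, and the second did not overlap, with a log2 fold change of 0.47 ± 0.55 (SE) and an adjusted p of 1 by edgeR. The count of member arms called was 0 of 16 against 0.844% of all arms, with 0 at an unadjusted p under 0.05 (4.64% of all arms) and 0 by DESeq2 (1.90%). The median log2 fold change was -0.02 for the members and -0.03 for all arms, and without 1 library it ranged from -0.12 to 0.15 and from -0.94 to 0.63.

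Between E13.5 and E15.5 male germ cells stop dividing. No member arm passed the test, and 3 of 4 arms of the miR-17 family (Mir17, Mir106b and Mir93) were below their E13.5 values in both E15.5 libraries. Mir93-5p was at 2.25% and 0.848% in E15.5 mPGCs, against 3.35% and 3.48% in E13.5 mPGCs, and every E15.5 value was lower. Its log2 fold change was -1.14 ± 0.36 (SE), with an unadjusted p of 0.00193 and an adjusted p of 0.229 by edgeR. Mir17-5p was at 0.419% and 0.438% in E13.5 mPGCs and 0.238% and 0.0301% in E15.5 mPGCs. Mir18-5p, the arm with the seed AAGGUGC, was at 0.222% and 0.190% in E13.5 mPGCs and 0.0620% and 0.0110% in E15.5 mPGCs. Both were lower at E15.5 in each library, and the replicates of E15.5 lay far apart.

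The count of member arms called for E15.5 against E13.5 was 0 of 16 by edgeR, against 0.422% of all arms, with 3 at an unadjusted p under 0.05 (7.38% of all arms) and 0 by DESeq2 (2.95%). Without E15.5 replicate 1 the count was 4, all lower, namely Mir17-5p (adjusted p 0.000429), Mir18-5p (adjusted p 0.0381), Mir93-5p (adjusted p 2.89e-06) and Mir25-5p, in a fit that called 25 of all 601 arms lower and 18 higher. With all mapping reads as library size it was 9, beside 76 of all 452 arms, each of them lower, a scaling that moved the median log2 fold change of all arms from -0.30 to -3.53. The median of the 16 member arms was -1.20 in the fit to miRNA-matching reads. Without 1 library it ranged from -2.01 to -0.39, beside -0.94 to 0.76 for all arms. Mir19a-3p and Mir106b-5p were also below their E13.5 values in both E15.5 libraries without passing, at 0.000332% and 0.00339% against 0.0416% and 0.0569% for Mir19a-3p and at 0.115% and 0.104% against 0.284% and 0.304% for Mir106b-5p. The remaining major arms overlapped with E13.5. Mir20a-5p was at 0.548% and 0.920% in E15.5 mPGCs, and Mir25-3p, the arm of Mir106b-25 with the seed AUUGCAC, was at 0.853% and 0.284% against 0.840% and 0.639% in E13.5 mPGCs. For Mir92-1-3p, joined with Mir92-2-3p in the fit, the log2 fold change was 0.02 ± 0.17 (SE).

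In mPGCLCs, arms of both clusters were called lower than in E12.5 and in E13.5 mPGCs. Mir92-1-3p and Mir25-3p, the members with the seed AUUGCAC, did not pass the test. Among the major arms with other seeds, Mir106b-5p and the arm shared by Mir19b-1 and Mir19b-2 did not pass in either comparison. No difference between families was tested. The 2 comparisons share the mPGCLC libraries. Mir20a-5p showed the clearest difference, at 0.0987% and 0.127% in mPGCLCs against 0.562% and 0.746% in E12.5 mPGCs and 0.965% and 0.841% in E13.5 mPGCs. Both mPGCLC libraries were below all 6 mPGC libraries on this scale. As a share of all mapping reads, Mir20a-5p overlapped with E15.5, at 0.0158% and 0.0316% in mPGCLCs against 0.0122% and 0.0174%. Its log2 fold change was -2.53 ± 0.59 against E12.5 (SE, adjusted p 0.000862) and -2.998 ± 0.60 against E13.5 (adjusted p 6.72e-05). It passed in 12 of 13 alternatives against E12.5, all but the one with all mapping reads as library size (adjusted p 0.0983), and in 13 of 13 against E13.5 (adjusted p 2.40e-06 to 0.0341).

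Mir93-5p was at 0.867% and 1.65% in mPGCLCs, below all 4 libraries of E12.5 and E13.5 and within the range of E15.5. It fell by 1.47 ± 0.36 on the log2 scale against E12.5 (SE, adjusted p 0.00175) and by 1.44 ± 0.36 against E13.5 (adjusted p 0.00181). Without mPGCLC replicate 1 it did not pass, with adjusted p of 0.129 and 0.133, and it did not pass by DESeq2 (0.146 and 0.148), in a fit of only the 2 groups (0.0580 and 0.0893) or with all mapping reads as library size (0.348 and 0.332). Over the 13 alternatives its adjusted p ranged from 0.000321 to 0.348 against E12.5 and from 0.000342 to 0.332 against E13.5.

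Mir17-5p was at 0.0554% and 0.108% in mPGCLCs, against 0.363% and 0.447% in E12.5 mPGCs and 0.419% and 0.438% in E13.5 mPGCs. Mir18-5p was at 0.0100% and 0.00977%, against 0.0914% and 0.153% in E12.5 mPGCs and 0.222% and 0.190% in E13.5 mPGCs. Both arms were below every E12.5 and E13.5 library. Mir17-5p lay within the range of E15.5 (0.238% and 0.0301%). Mir18-5p lay below both E15.5 libraries (0.0620% and 0.0110%), though close to replicate 2. Both arms fell against E13.5, by 2.39 ± 0.82 on the log2 scale for Mir17-5p (SE, adjusted p 0.0342) and by 4.38 ± 1.36 for Mir18-5p (adjusted p 0.0169). Against E12.5 the log2 fold changes were -2.31 ± 0.82 (adjusted p 0.0502) and -3.63 ± 1.31 (adjusted p 0.0601), which did not pass here and passed in 5 and 4 of 13 alternatives, and whether the 2 comparisons differ was not tested. Both calls against E13.5 were lost without any 1 of the 4 libraries. The adjusted p of Mir17-5p was then 0.162 and 0.177 without E13.5 replicates 1 and 2 and 0.300 and 0.067 without mPGCLC replicates 1 and 2. For Mir18-5p it was 0.141, 0.0832, 0.119 and 0.124 in the same order, and over all 13 alternatives it ranged from 0.00011 to 0.141, beside 0.000347 to 0.300 for Mir17-5p. With all mapping reads as library size both calls were lost (0.258 for Mir17-5p and 0.0785 for Mir18-5p), and that of Mir17-5p was also lost in a fit of only the 2 groups (0.0611) and with a replicate block (0.0664). Mir106b-5p, the remaining arm with the seed AAAGUGC, was at 0.0436% and 0.0665% in mPGCLCs against 0.269% to 0.359% over the E12.5 and E13.5 libraries, without overlap. It did not pass in the main edgeR fit (adjusted p 0.0601 and 0.0650), while by DESeq2 it passed (0.00916 and 0.0117). Of 13 alternatives it passed in 4 against E12.5 and 3 against E13.5, among them edgeR with TMM factors and with added 3′ bases in both.

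In the miR-19 family, Mir19a-3p was the major arm with the lowest mean in all 4 groups. It was at 0.0171% and 0.0772% in E12.5 mPGCs, 0.0416% and 0.0569% in E13.5 mPGCs and 0.000332% and 0.00339% in E15.5 mPGCs, and had no read in either mPGCLC library. Taking 3 counts over the group as the limit, the mPGCLC level was at least 628-fold lower than E12.5 (adjusted p 0.00988) and at least 656-fold lower than E13.5 (adjusted p 0.00871). The arm entered the test through the mPGC groups alone, so these calls describe the lack of reads and add no support to it. Without 1 mPGCLC library the calls were lost, with adjusted p of 0.0855 and 0.0916 against E12.5 and 0.0760 and 0.0843 against E13.5 without replicates 1 and 2, and without E12.5 replicate 2 it was 0.154. They were also lost in a fit of only the 2 groups compared (0.0580 and 0.0596). The limit was 228-fold without E12.5 replicate 2, 1029-fold without E12.5 replicate 1, and 372-fold and 257-fold without mPGCLC replicates 1 and 2. Against E13.5 it was 388-fold and 268-fold without mPGCLC replicates 1 and 2. The arm shared by Mir19b-1 and Mir19b-2 was at 0.142% and 0.190% in E12.5 mPGCs, 0.278% and 0.274% in E13.5 mPGCs, 0.0660% and 0.293% in E15.5 mPGCs, and 0.0162% and 0.124% in mPGCLCs. Its mPGCLC values were below E12.5 and E13.5 and did not pass (adjusted p 0.371 and 0.189), except against E13.5 without mPGCLC replicate 2 (0.0331).

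A pair of minor arms also had no read in mPGCLCs and passed the test, which they entered through the mPGC groups alone. Their calls are thus given as a description of the lack of reads and add no support to it. Mir92-1-5p was at 0.0426% and 0.0396% in E12.5 mPGCs, 0.0104% and 0.0313% in E13.5 mPGCs, and 0.0418% and 0.00458% in E15.5 mPGCs. Its mPGCLC level was at least 548-fold lower than E12.5 (adjusted p 0.0174) and at least 278-fold lower than E13.5 (adjusted p 0.0233). Those calls were lost without either mPGCLC library (adjusted p 0.122 and 0.140 against E12.5, 0.134 and 0.160 against E13.5), without E12.5 replicate 1 or 2 (0.0957 and 0.0858) and without E13.5 replicate 2 (0.0693). They were also lost with all mapping reads as library size (0.0671 and 0.0789), in a fit of only the 2 groups (0.0527 and 0.126) and with a replicate block (0.0554 and 0.0616). Without mPGCLC replicates 1 and 2 the limits were 324-fold and 224-fold against E12.5 and 165-fold and 114-fold against E13.5, and without E13.5 replicates 1 and 2 the limit against E13.5 was 418-fold and 139-fold. Mir93-3p was at 0.0387% and 0.0502% in E12.5 mPGCs and 0.000228% and 0.0359% in E13.5 mPGCs, the first of which was 4 reads. It was at least 593-fold lower in mPGCLCs than at E12.5 (adjusted p 0.0463), a call lost without E12.5 replicate 1 or 2 (0.183 and 0.253) or mPGCLC replicate 1 or 2 (0.200 and 0.228). It passed in 5 of 13 alternatives, and the limit was 350-fold and 242-fold without mPGCLC replicates 1 and 2. The call of Mir93-3p was also lost with all mapping reads as library size, in a fit of only the 2 groups, with a replicate block and with added 3′ bases. Against E13.5 it did not pass (adjusted p 0.0607).

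The 2 member arms with the seed AUUGCAC did not pass in the fit of all 8 libraries. For Mir92-1-3p, joined with Mir92-2-3p, the log2 fold change was 0.13 ± 0.17 against each stage (SE, adjusted p 0.686 and 0.653), and with TMM factors it turned to -0.0847 and -0.0461. Mir25-3p was at 0.489% and 0.581% in E12.5 mPGCs, 0.840% and 0.639% in E13.5 mPGCs and 1.10% and 1.39% in mPGCLCs, where both libraries were above all 6 mPGC libraries. The log2 fold change of Mir25-3p was 1.22 ± 0.52 against E12.5 (SE, adjusted p 0.137) and 0.75 ± 0.52 against E13.5 (adjusted p 0.355), which did not pass. In a fit of only the 2 groups compared, Mir25-3p was called higher than E12.5 (adjusted p 0.0395), the only 1 of 13 alternatives in which it passed (adjusted p 0.0395 to 0.722). Of the 3 other tested arms with this seed, looked up after the values were seen, Mir92b-3p was called higher than E13.5 (log2 fold change 3.77 ± 0.86, SE, adjusted p 0.00059) and not against E12.5 (adjusted p 0.0718), while Mir32-5p and Mir363-3p passed in neither comparison. Among tested arms outside the members with the other seeds, Mir106a-5p and Mir20b-5p (AAAGUGC) and Mir18b-5p (AAGGUGC) also passed in neither.

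In counts, 5 of 16 member arms were called lower in mPGCLCs than in E12.5 mPGCs, against 8.02% of all arms. No member arm was called higher by edgeR, against 2.95% of all arms, with 1 at an unadjusted p under 0.05 (7.38% of all arms) and 0 by DESeq2 (7.59%). A fit of only the 2 groups called 5 arms, of which 1 was shared with the 5 named above and 1, Mir25-3p, was higher, beside 16 of all 368 arms lower and 25 higher. Against E13.5 mPGCs the count of lower arms was 6 of 16, beside 9.49% of all arms. There too 0 were called higher by edgeR, against 4.01% of all arms, with 0 at an unadjusted p under 0.05 (6.12% of all arms) and 0 by DESeq2 (6.12%). The members' share called was thus 31.2% and 37.5%. Arms with no read in mPGCLCs entered the test through the mPGC groups alone. Among arms with a read in both groups, 2 of 12 member arms (16.7%) were called lower than E12.5, beside 5.52% of 344 arms, and 4 of 12 (33.3%) lower than E13.5, beside 7.78% of 347. Whether members were called more often than other arms was not tested. DESeq2 called 6 and 7 of the 16 member arms lower, beside 64 and 69 of all 474. Leaving out 1 library at a time gave 1 to 3 arms against E12.5 and 1 to 4 against E13.5, with the lowest count in each without mPGCLC replicate 1. In those fits 24 to 32 of all arms were called lower than E12.5 and 30 to 36 lower than E13.5.

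The median log2 fold change of the 16 member arms was -1.89 against E12.5 and -2.22 against E13.5, beside -0.38 and -0.43 for all 474 arms. The members' medians include Mir19a-3p, Mir20a-3p, Mir92-1-5p and Mir93-3p, which had no read in mPGCLCs and were fitted at -12.8 to -9.39. Among the 12 member arms with a read in both groups, the median lay between -1.31 and -0.67 against E12.5. Against E13.5 it lay between -1.44 and -0.22. No such median was taken for all arms. Without 1 library the median of all member arms tested, arms without reads included, ranged from -2.85 to -1.81 against E12.5 and from -2.75 to -1.41 against E13.5. That of all arms ranged from -0.77 to 0 and from -1.29 to 0. With arms that had no read in a group set at their limit, the medians of all arms were -0.20 and -0.29. The members' medians could not move, because the limits of their arms without reads also lay below them. TMM factors moved the medians of all arms to -0.61 and -0.59, and the members, again with the arms without reads included, were then at -2.09 and -2.36. Of the 7 arms of Mir106a-363 tested apart from those shared with members, 0 were called by edgeR in each of the 4 comparisons. At an unadjusted p under 0.05 there were 0, 1, 0 and 0 of them, and DESeq2 called 0, 0, 1 and 1, in the order E13.5 against E12.5, E15.5 against E13.5, and mPGCLCs against E12.5 and E13.5.

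Members differed in which arm of the hairpin was kept. The 5p arm made up 98.6% to 100% of Mir93 reads and 96.6% to 100% of Mir20a reads over the 8 libraries, whereas for Mir92-1 it was at most 0.442%. For Mir17 it was 95.4% to 96.1% in E12.5 mPGCs, 96.2% to 96.4% in E13.5 mPGCs, 92.6% to 99.9% in E15.5 mPGCs and 63.2% to 71.7% in mPGCLCs. The mPGCLC libraries thus lay apart from the rest, with Mir17-3p at 0.0219% and 0.0627% there and between 0.000332% and 0.0216% in mPGCs. For Mir106b the 5p arm was 57.1% to 69.0% in E12.5 mPGCs, 73.9% to 79.2% in E13.5 mPGCs, 25.5% to 54.0% in E15.5 mPGCs and 28.2% to 42.2% in mPGCLCs. Its 3p arm was thus the larger one in both mPGCLC libraries and in 1 of the E15.5 libraries. These arm shares were described without a test. As levels, Mir17-3p did not pass in mPGCLCs against E12.5 (log2 fold change 1.23 ± 2.46, SE, adjusted p 0.820) or E13.5 (1.36 ± 2.47, adjusted p 0.739).

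Member reads were also summed by seed, as read from bases 2 to 8 of each read, and described without a test. Reads with AAAGUGC were 4.59% and 4.96% of miRNA-matching reads at E12.5, 4.93% and 4.98% in E13.5 mPGCs, 3.11% and 1.90% in E15.5 mPGCs, and 1.05% and 1.92% in mPGCLCs. Reads with AUUGCAC were 11.2% and 11.2%, 12.8% and 11.0%, 10.1% and 13.3%, and 13.3% and 11.6% in the same order. The AAAGUGC values of E15.5 and mPGCLCs lay below all of E12.5 and E13.5, while the AUUGCAC values overlapped in each comparison except that mPGCLCs lay above E12.5. As a mean share of member reads, AAAGUGC was 28.0% in E12.5 mPGCs, 27.6% in E13.5 mPGCs, 17.1% in E15.5 mPGCs and 10.2% in mPGCLCs, and AUUGCAC was 65.5%, 65.8%, 78.0% and 85.0%.

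The smaller families were also lower in both mPGCLC libraries than in every E12.5 and E13.5 library, and no difference between families was tested. Reads with GUGCAAA were 0.136% and 0.259% in E12.5 mPGCs, 0.319% and 0.323% in E13.5 mPGCs, 0.0587% and 0.296% in E15.5 mPGCs, and 0.0162% and 0.103% in mPGCLCs. Reads with AAGGUGC were 0.0914% and 0.153%, 0.222% and 0.185%, 0.0620% and 0.0108%, and 0.0100% and 0.00977% in the same order. The members were the main source of each seed, with 80.6% to 95.9% of all miRNA reads that carried AAAGUGC and 70.7% to 83.6% of those that carried AUUGCAC. For GUGCAAA their part was 92.8% to 100%, and for AAGGUGC it was 77.1% to 100%.

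**Figure D3:**
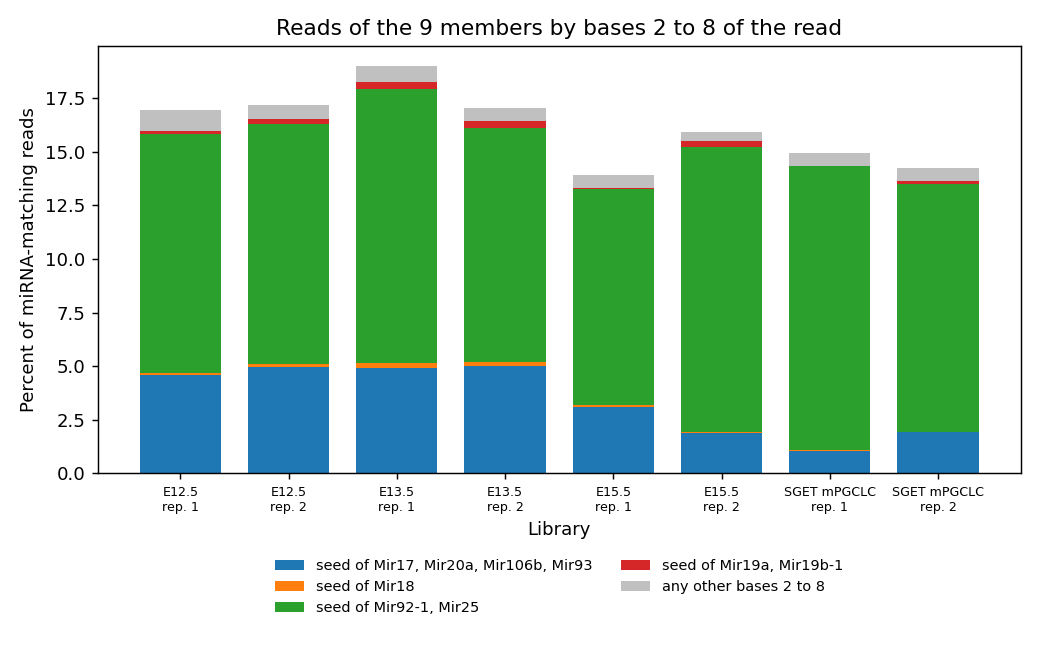
Member reads by seed family in each of the 8 libraries, as stacked bars of percent of miRNA-matching reads from 0. The miR-92a and miR-25 family makes up most of every bar, and the miR-17 family is smaller in the E15.5 and mPGCLC libraries than in the other 4.

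The 5 arms whose shares followed each cluster most closely were found by Pearson correlation of log2 shares over the 8 libraries, among 74 arms with at least 100 counts in every library. For Mir106b-25 these were Mirlet7g-5p (0.984), the shared arm of Mirlet7f-1 and Mirlet7f-2 (0.930), Mir26b-5p (0.905), Mir151-5p (0.904) and Mir30a-5p (0.861). For Mir17-92, whose share varied little, they were an arm set shared by Gm47276 and like genes (0.735), the shared 5p arm of Mir129-1 and Mir129-2 (0.622), Mir672-5p (0.493), Mir423-5p (0.468) and Mir1983-3p (0.466). The libraries of a group share their source, so these values describe a likeness and carry no p.

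Markers of the cells in the sort were read in the same libraries. The 11 listed miRNAs of pluripotent and germ cells summed to 30.1% and 29.3% in E12.5 mPGCs, 21.5% and 21.1% in E13.5 mPGCs, 14.1% and 12.9% in E15.5 mPGCs, and 35.9% and 36.8% in mPGCLCs, with 10 or 11 of them detected and Mir292 the most abundant in each library. Mir202, listed for gonadal supporting cells, was at 0.116% and 0.0845% in E12.5 mPGCs, 0.187% and 0.202% in E13.5 mPGCs and 0.251% and 0.308% in E15.5 mPGCs, and had no read in mPGCLCs. The first list was thus highest, and Mir202 was at 0, in the mPGCLC libraries, where Mir20a-5p was lowest as a percent of miRNA-matching reads.

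Listed miRNAs of stroma and smooth muscle, 4 or 5 of 5 detected and led by Mir143, Mir199a-1 or Mir199a-2, summed to 0.174% and 0.121% in E12.5 mPGCs, 0.108% and 0.393% in E13.5 mPGCs, 0.403% and 1.17% in E15.5 mPGCs, and 0.543% and 0.667% in mPGCLCs. They were higher in every E15.5 and mPGCLC library than at E12.5 and E13.5. The endothelial Mir126a was at 0.0136% and 0.0222%, 0.0251% and 0.0283%, 0.000332% and 0.00697%, and 0.0434% and 0.0110% in the order of the groups. Of the erythroid miRNAs, Mir144 had 71 reads in E13.5 replicate 2 and Mir451a had 1 read in E15.5 replicate 2, with none in the other 6 libraries. The remaining one, listed as Mir486a, is named Mir486 in the annotation and was matched under that name after the values were seen, with reads shared with Mir3107 included. It had 0 and 248 reads in E12.5 mPGCs, 0 and 306 in E13.5 mPGCs, 22 and 498 in E15.5 mPGCs, and 1 and 0 in mPGCLCs, at most 0.0992% of miRNA-matching reads (E15.5 replicate 2). The part of these other cells, and of the shares of miRNA-matching reads, in the differences of the members was not tested.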

How the data were processed

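The deposited values are raw counts, not normalized, of distinct sequences that the authors obtained by trimming with cutadapt 3.2 and mapping to GRCm38 by STAR 2.5.3a. Sequences of 20 to 24 nt were matched exactly and in sense to the 2202 miRNA transcripts of GENCODE M21, each counted once, and assigned to an arm by the hairpin midpoint. Arms that share reads were joined. Counts were fitted with edgeR 4.0.16 in R 4.3.3 (quasi-likelihood, 4 groups in 1 fit, filterByExpr, miRNA-matching reads as library size, Benjamini-Hochberg over all arms). Shares of clusters were compared by two-sided exact permutation tests. Alternatives were all mapping reads or TMM factors, DESeq2 1.42.0, no filter on low counts, only the groups compared, a replicate block, each library left out, 18 to 26 nt, up to 2 added 3′ bases and, chosen after seeing the data, shared reads kept apart. All 9 members with both arms were named by rule, with values per library for major arms and for minor arms that passed. Members and lists were chosen with earlier results of these data known.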

Additional observations from a re-analysis of the deposited data

How the results depend on the processing

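The number of member arms called depended on scaling and on single libraries. With all mapping reads as library size, 9 arms were called for E15.5 against E13.5, 1 for mPGCLCs against E12.5 and 2 against E13.5, all lower, beside 76, 16 and 19 of all 452 arms. TMM factors gave 8 for mPGCLCs against E12.5, beside 44 of all 474, and a fit of only the groups compared gave 2 of 14 against E13.5, beside 20 of all 366 arms lower and 16 higher. Against E12.5 that fit gave 5, of which 1 (Mir20a-5p) was shared with the 5 reported and 1 (Mir25-3p) was higher. Leaving out 1 library gave 0 to 4, 1 to 3 and 1 to 4 in these comparisons, beside 0 to 25, 24 to 32 and 30 to 36 of all arms called lower, where the lone library of a group was assumed to vary like the others. Cluster ratios moved with all mapping reads as denominator, to 0.107 (E15.5 over E13.5) and 1.14 (mPGCLCs over E12.5) for Mir17-92 and to 1.08 (E13.5 over E12.5) and 0.0642 (E15.5 over E13.5) for Mir106b-25. Reads of 18 to 26 nt gave Mir106b-25 a ratio of 1.02 (E13.5 over E12.5). Over all alternatives, 67 of 72 cluster ratios moved by less than the spread between replicates. Ratios without 1 library could hardly move further, because that spread came from the same pair of libraries. Of 52 counts of arms, 38 were within 1.5 times the reported count, which does not show that the same arms were called. The reported count was 0 in both comparisons between mPGC stages, where nearly all alternatives gave 0 again. Most of the 14 counts outside that limit were of mPGCLCs. Of the log2 fold changes of single arms, 463 kept direction and side of the threshold, while 49 lost the call and 30 gained one. Most of the 463 were of arms without a call in the reported fit, which had none to lose. Where an arm was called, the call held in 5 (Mir93-3p against E12.5) to 13 (Mir20a-5p against E13.5) of 13 alternatives. The log2 fold changes that changed sign had not been called with miRNA-matching reads as library size. All mapping reads turned Mir92-1-5p (-3.01) and Mir92-1-3p (-3.09) for E15.5 against E13.5 and Mir93-5p (0.0747) for E13.5 against E12.5. TMM factors turned Mir19a-3p (-0.0068) and Mir92-1-3p (-0.0386) for E13.5 against E12.5, and Mir92-1-3p for mPGCLCs (-0.0847 against E12.5, -0.0461 against E13.5). DESeq2 turned Mir20a-5p for E15.5 (0.191). The 18 to 26 nt window turned Mir93-5p for E13.5 (0.00023), added 3′ bases turned Mir92-1-3p for mPGCLCs (-0.0030 and -0.0414), and shared reads kept apart, chosen after seeing the data, turned Mir92-1-3p for E15.5 (-0.0307). Without 1 library, log2 fold changes ranged from -0.0605 to 0.239 for Mir17-5p, -0.65 to 1.53 for Mir19a-3p, -0.155 to 0.142 for Mir92-1-3p and -0.289 to 0.128 for Mir106b-5p (E13.5 against E12.5). For E15.5 against E13.5 they ranged from -0.72 to 0.027 for Mir20a-5p, -2.12 to 0.0335 for Mir19b-1-3p, -2.19 to 1.15 for Mir92-1-5p, -0.182 to 0.203 for Mir92-1-3p, -11.5 to 1.97 for Mir93-3p and -1.38 to 0.207 for Mir25-3p. For mPGCLCs against E13.5 the range of Mir92-1-3p was -0.012 to 0.285. The replicate block, which pairs libraries of the same number, gave 3 arms for mPGCLCs against E12.5, beside 32 of all 474 lower and 14 higher, and turned Mir92-1-5p for E15.5 (-0.129) and Mir92-1-3p for E13.5 (-3.6e-05). In a check of the pairing over 474 arms, paired deviations correlated at 0.119, 0.0853, 0.127 and -0.0265 in the 4 comparisons. The cause was not tested.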

Other observations

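Over the 8 libraries together, between 95.7% (Mir19b-1-3p) and 99.4% (Mir18-5p) of the reads of each major arm began at its main 5′ end. Single libraries were lower, at 83.2% in mPGCLC replicate 2 and 83.8% in E12.5 replicate 1 for Mir19b-1-3p and at 88.8% in mPGCLC replicate 2 for Mir17-5p. The lowest was 0% for Mir19a-3p in E15.5 replicate 1, where its only read began 1 base downstream. The most abundant read was identical to the RefSeq mature sequence for the major arm of each member except Mir92-1, whose 22-nt read made up 92.2% of its 3p reads. Mir106b-5p was the most divided at its 3′ end, with 48.0% of its reads at 21 nt and 43.2% at 22 nt.

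Some minor arms were uneven between replicates as percents of miRNA-matching reads. Mir18-3p was at 0.00136% and 0.0368% in E12.5 mPGCs, 0.000057% and 0.0181% in E13.5 mPGCs, 0.00497% and 0.00259% in E15.5 mPGCs, and 0.0401% and 0 in mPGCLCs. Mir20a-3p was at 0.0196% and 0.0016% in E12.5 mPGCs and 0.00925% in E13.5 replicate 2, with no read in the other 5 libraries. Mir25-5p was at 0.243% and 0.012% in E15.5 mPGCs and at 0.174% and 0.0769% in E12.5 mPGCs, and was closer in E13.5 mPGCs (0.164% and 0.152%) and mPGCLCs (0.133% and 0.138%).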
